A study of Saccharum hybrid cultivar with 68 samples.

Results

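In sugarcane stem, 32 of 100182 assembled transcripts (unigenes), or 0.0319%, peaked at the middle stage of sucrose accumulation by the rule given here. They did so in both genotypes studied. They were chosen by their mean counts scaled to library size (CPM, the count divided by the library total and multiplied by 1e6). In each genotype the middle stem mean had to be 5 CPM or more and at least 2 times both the early and the late stem mean, each over 3 libraries. The level of 5 CPM was reached in both genotypes by 14899 unigenes, of which the 32 are 0.215%. The rule was met by 173 unigenes in stem of ROC22 and by 297 in stem of GT86-887, so the 32 shared unigenes are 18.5% of the ROC22 list and 10.8% of the GT86-887 list. With leaf libraries, 27 unigenes met the same rule in both genotypes, 1 of them among the 32.

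The study profiled leaf and stem of the sugarcane hybrid genotypes ROC22 and GT86-887, which were chosen for different sucrose content, at 3 stages of sucrose accumulation named early, middle and late. Messenger RNA was sequenced in 36 libraries, with 3 for each genotype, tissue and stage, and no treatment or transgene is named for any group. The sources used here do not give which genotype holds more sucrose, which internode or leaf was taken, or whether the 3 libraries of each group are separate plants. The p-values therefore describe variation among the libraries, part or all of which may be technical. Degradome libraries, of which there were 8, record the ends of cleaved RNA and are used below for the same unigenes.

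The cane stem is the main storage organ of sugarcane. Sucrose made in the leaves is loaded into the phloem, carried to the stem and stored in the vacuoles of its parenchyma cells, while young internodes also use it for elongation and for cell wall synthesis. As an internode matures, growth slows, walls thicken and storage takes a larger part of the incoming sugar. A transcript that is abundant only at an intermediate stage therefore differs from one that climbs or declines steadily over accumulation. The files pair the unigenes with no gene name, so no function is given for any of the 32, and the labelled tissues could not be checked against marker genes.

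Summed counts per library were 19241718 to 24929466 in stem and 17970015 to 24414986 in leaf. The most abundant stem unigene held 2.28% to 17.8% of a library, which lowers the CPM of all others where it is high. Middle library 1 of GT86-887 stood apart in both tissues. In stem, its mean correlation of log2 CPM with the other libraries of its group was 0.902, against 0.922 with the middle libraries of ROC22, while every other stem library correlated at 0.942 to 0.986 with its own group. In leaf the values were 0.904 and 0.922. Unigenes found in leaves of a single genotype, with each leaf library taken at its label, were also counted in stem. Middle library 1 of GT86-887 stem held 15 of 20 such GT86-887 unigenes at a summed 27.2 CPM. It held 2 of 24 such ROC22 unigenes at 0.304 CPM. The other GT86-887 stem libraries held 18 or 19 of the GT86-887 unigenes at 35.3 to 43.1 CPM. The choice used the leaf library that stood apart, so nothing is read from these counts about the origin of the stem library. Without this stem library the rule gave 42 unigenes, among them 26 of the 32.

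Summed, the 32 unigenes stood highest at the middle stage, as the rule required. Their summed CPM in ROC22 stem was 569 ± 129 at the early stage, 1989 ± 905 at the middle stage and 729 ± 417 at the late stage (SD, n = 3). In GT86-887 stem the sums were 316 ± 110, 1426 ± 632 and 492 ± 202. These contrasts chose the unigenes and are given as a description, with no test. The middle sums were spread widely, at 1018, 2141 and 2808 CPM in the libraries of ROC22 and at 778, 1462 and 2039 CPM in those of GT86-887. The lowest middle sum of ROC22 lay below the highest late sum, 1154 CPM, so the sums of those groups overlapped. In GT86-887 every middle sum was above every early and late sum. In bulk tissue, fewer cells of a type and less RNA per cell cannot be told apart.

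**Figure D1:**
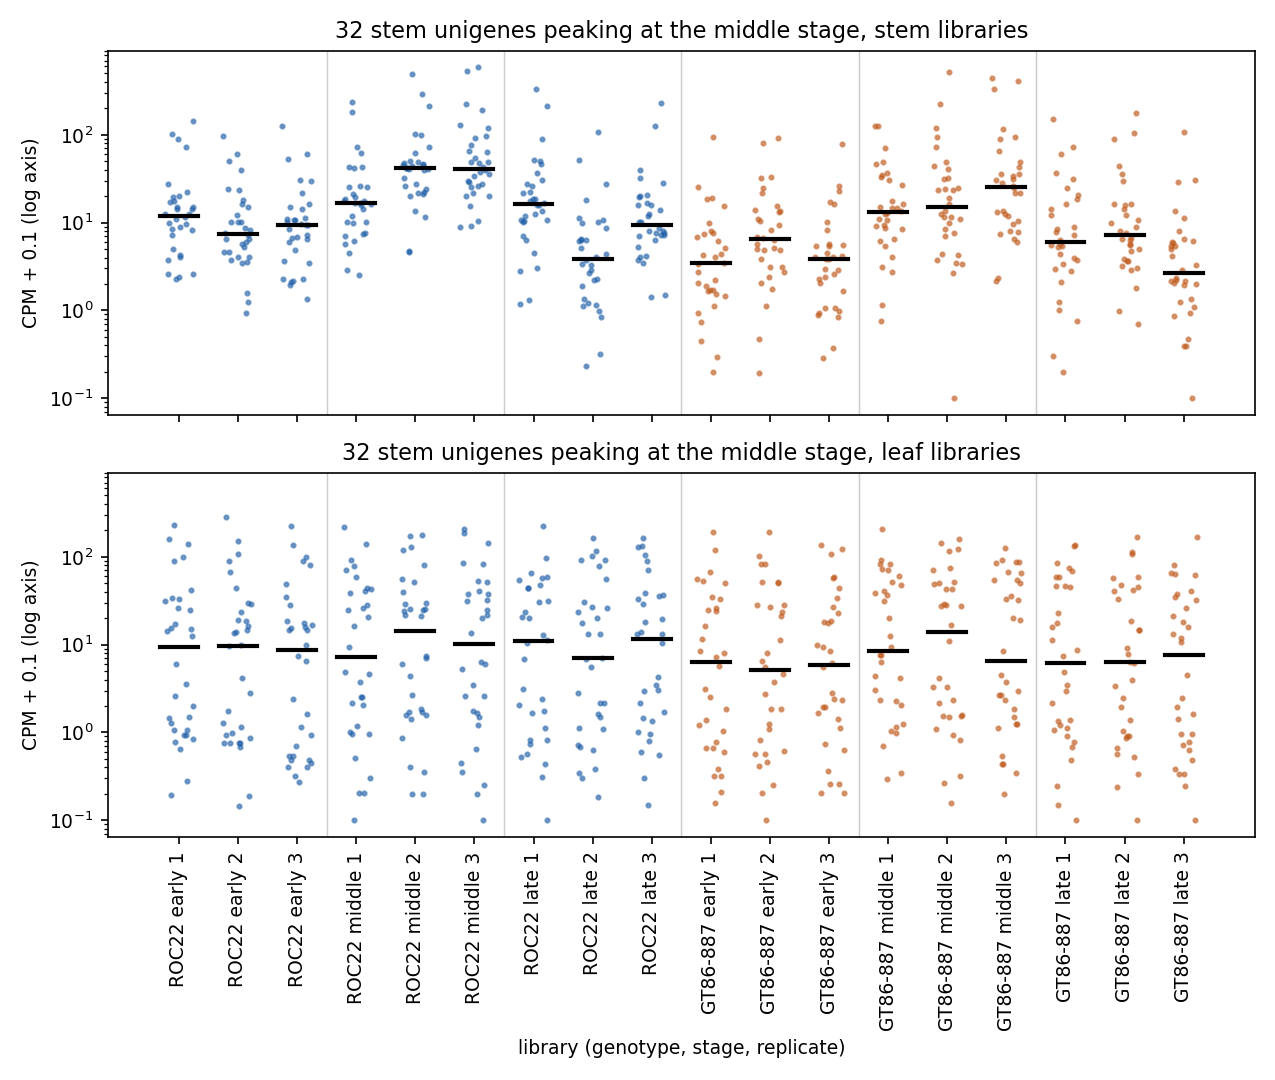
CPM + 0.1 on a log axis of the 32 unigenes in every stem and leaf library, 1 point per unigene and library, with the median as a bar. In stem the middle libraries hold the highest medians of each genotype but spread widely, and in leaf the medians of the libraries lie between 4.99 and 14.2 CPM.

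The size of the peak differed from one unigene to another. The middle mean was 2.01 to 5.995 times the higher of the early and late means in ROC22, with a median of 2.43. In GT86-887 the ratio ran from 2.003 to 11.8, with a median of 2.79. The median unigene stood at 10.1, 33.6 and 9.94 CPM at the early, middle and late stages in ROC22 stem, and at 4.42, 17.8 and 5.62 CPM in GT86-887 stem. Scaled by transcript length, the deposited FPKM at the middle stage ran from 1.5 to 268 in ROC22 and from 1.85 to 238 in GT86-887. The median FPKM was 29.4 in ROC22 and 19.9 in GT86-887.

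**Figure D2:**
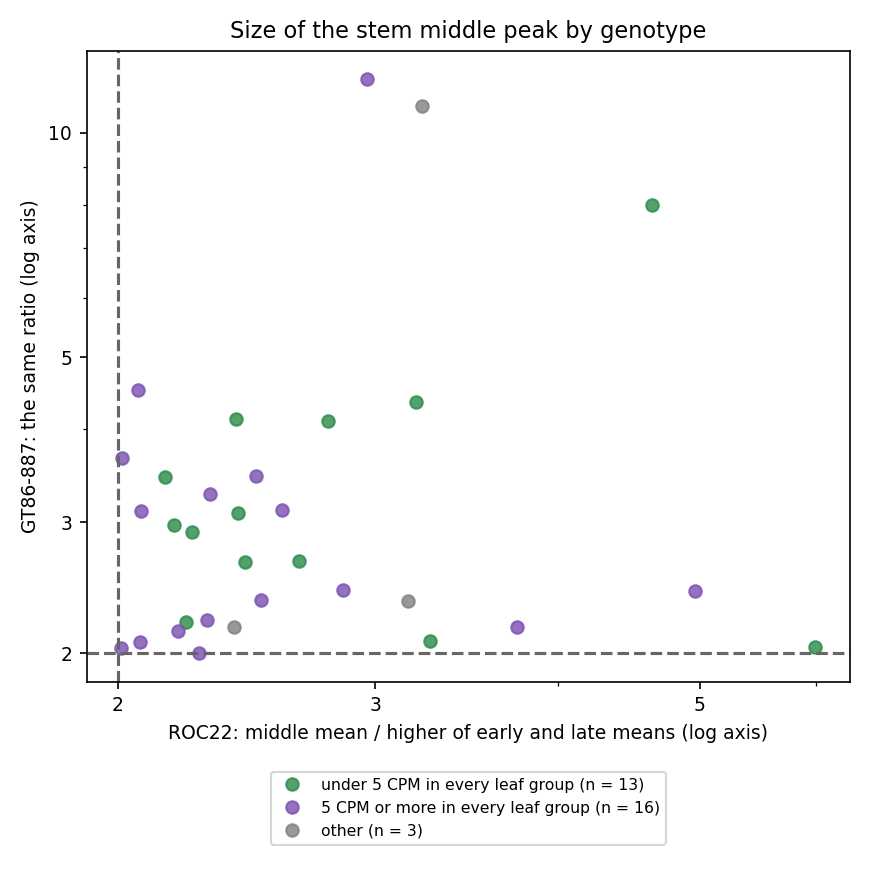
Ratio of the middle stem mean to the higher of the early and late stem means, ROC22 on the x axis and GT86-887 on the y axis, both log axes, with 1 point per unigene coloured by its leaf level. The dashed lines mark the ratio of 2 that the rule set, and the points reach 5.995 in ROC22 and 11.8 in GT86-887.

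Many of the 32 lie near the threshold. The 3 unigenes just inside the fold threshold had ratios of 2.003, 2.01 and 2.01 in the genotype where they were weaker, and the 3 just outside had 1.93, 1.95 and 1.99. Within 0.1 of the threshold there were 8 unigenes on each side. At the level threshold, the lowest middle means inside were 5.03 and 5.30 CPM and the highest outside were 4.47 and 4.49 CPM.

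Single libraries decided much of the membership. All 3 middle libraries lay above all 6 early and late libraries for 9 of the 32 unigenes in ROC22 and for 10 in GT86-887, against 6.26% and 6.82% of the 14899 unigenes with a middle stem mean of 5 CPM or more in both genotypes, called the abundant unigenes here. For 2 of the 32 this held in both genotypes, against 1.32% of those unigenes. The rule used these values, so nothing is read from the counts. For 22 unigenes in ROC22 and 20 in GT86-887, 2 of the 3 middle libraries lay above. Middle library 1 of ROC22 was the lowest of its group for 28 of the 32, against 44.9% of the 14899 unigenes. At the late stage, library 2 of ROC22 was the lowest for 30 of the 32, against 45.3%, and library 3 of GT86-887 was the lowest for 27, against 27.5%.

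The unigenes also moved together within groups, beyond what the stage means describe. After the group mean was subtracted from log2(CPM + 1) in each of the 18 stem libraries, the correlation between 2 of the 32 unigenes had a median of 0.597 over 496 pairs, with a range from -0.40 to 0.981. It was positive for 470 pairs, and the median over all pairs of the 14899 unigenes was 0.039. All pairs share the same 18 libraries and the unigenes were chosen on means over these libraries, so the values are a description. The part that single libraries play in this co-movement was not tested.

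Leaving out 1 stem library at a time gave 15 to 52 unigenes by the rule. The count was lowest without middle library 3 of ROC22, with 15, and highest without middle library 1 of ROC22, with 52. It was 50 without late library 1 of ROC22, 19 without late library 2 of ROC22 and 20 without late library 3 of GT86-887. The unigenes c113664.graph_c0, c122272.graph_c0, c130226.graph_c0 and c137764.graph_c0 met the rule in all 18 of these recounts. They are named because their count was 4, after their values were seen.

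The unigenes c130226.graph_c0 and c117450.graph_c0 were those whose 3 middle libraries lay above all early and late libraries in both genotypes. In ROC22 stem, c130226.graph_c0 stood at 17.2, 18.0 and 11.1 CPM in the early libraries, at 42.8, 41.1 and 48.3 in the middle libraries and at 10.5, 6.48 and 7.998 in the late libraries. In GT86-887 stem it stood at 1.38, 9.25 and 3.77 CPM early, 17.5, 11.4 and 21.6 middle and 7.05, 7.82 and 5.86 late. Its peak was tight in ROC22 and closer to the early and late libraries in GT86-887, where the lowest middle library was 11.4 and the highest early library 9.25 CPM. For c117450.graph_c0 the ROC22 stem values were 12.5, 12.1 and 10.8 CPM early, 25.2, 22.4 and 25.6 middle and 6.88, 1.23 and 4.04 late. In GT86-887 stem this unigene stood at 3.93, 6.29 and 5.28 CPM early, 10.6, 23.9 and 35.7 middle and 5.49, 6.41 and 1.88 late. Its middle means were 24.4 ± 1.76 CPM in ROC22 and 23.4 ± 12.5 CPM in GT86-887 (SD, n = 3), and the libraries of the genotypes overlapped.

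**Figure D3:**
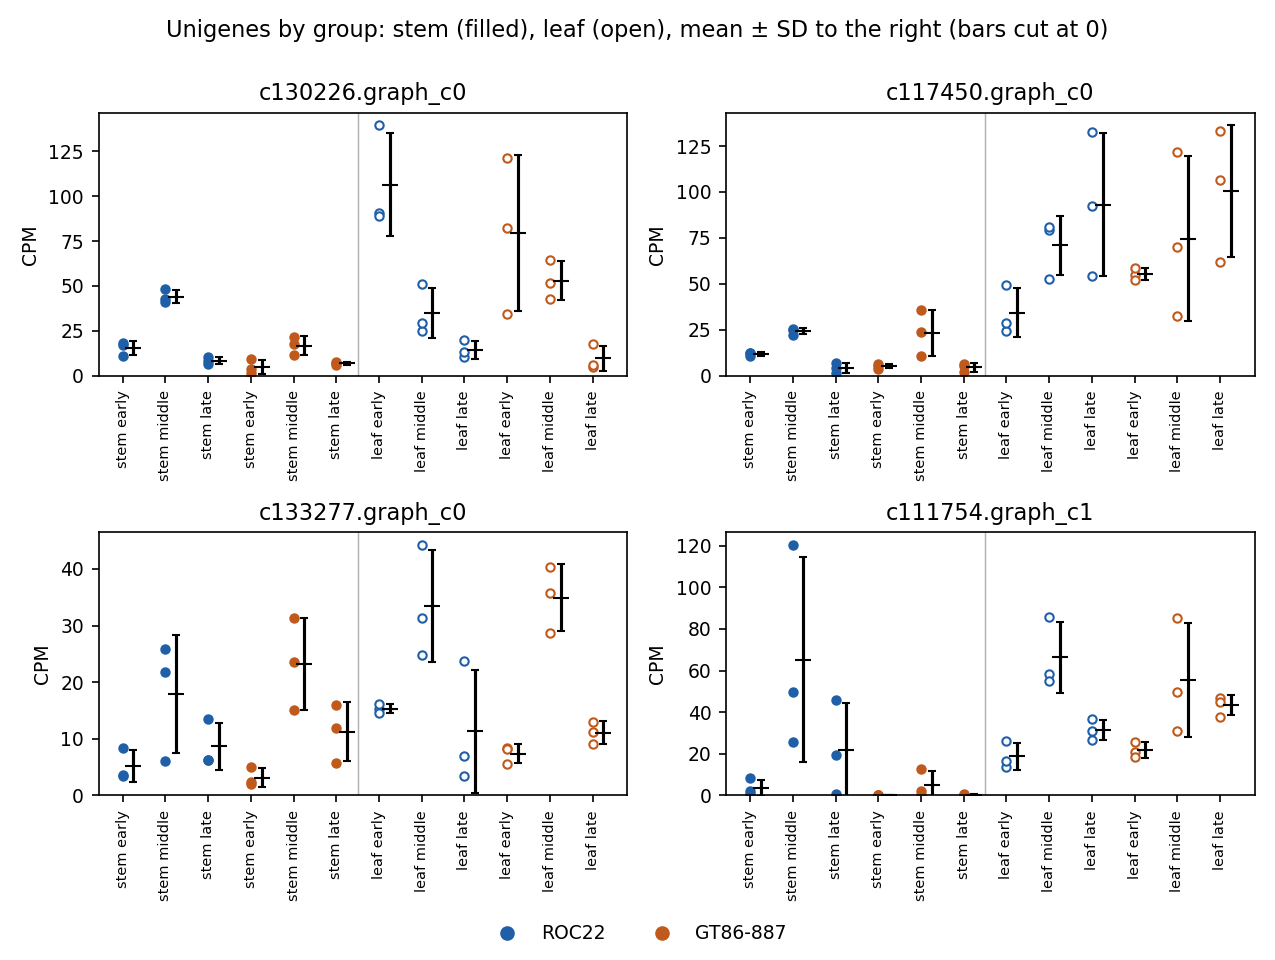
CPM of single unigenes in the 6 stem groups (filled) and the 6 leaf groups (open), 1 point per library with the mean ± SD beside it, bars cut at 0. The stem middle group has the highest stem mean of its genotype in each panel. In leaf the middle mean is the highest in both genotypes for c133277.graph_c0 and c111754.graph_c1. The leaf late mean is the lowest for c130226.graph_c0 and the highest for c117450.graph_c0.

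The rule bounds the early and late stem levels only from above, and it used the same libraries. The late minus early values are therefore a description, and nothing is read from the counts beside those of all tested unigenes. All 32 passed the filter on low counts in stem. In ROC22, none of the 32 was higher and 1 was lower at the late than at the early stage (edgeR quasi-likelihood test, Benjamini-Hochberg adjusted p below 0.05), against 8.91% higher and 9.28% lower of the 36199 unigenes tested. At an unadjusted p below 0.05, 1 was higher and 3 were lower, and DESeq2 called 0 higher and 1 lower. The median log2 difference was -0.03, with a range from -2.33 to 2.43. In GT86-887, 2 of the 32 were higher and 0 lower, against 7.17% and 8.66%, with 4 higher and 1 lower at an unadjusted p below 0.05 and with 2 and 1 by DESeq2. The median there was 0.31, and the early mean lay below the late mean for 25 of the 32, against 18 in ROC22. The fitted difference was positive for 24 of the 32 in GT86-887 and for 16 in ROC22. Among all tested unigenes it was positive for 48.9% in GT86-887 and 46.2% in ROC22. The median SE of the log2 difference was 0.63 for the 32 in ROC22 and 0.34 for all tested unigenes.

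The unigene counted as lower at the late stage in ROC22 was c117450.graph_c0, with a log2 difference of -1.70 ± 0.51 (SE). This call was lost without any 1 of early libraries 1, 2 or 3 or late libraries 2 or 3 of ROC22. Without late library 2 of ROC22, 1 unigene passed as higher in ROC22 and 1 as lower in GT86-887, and without early library 1 or 2 of GT86-887, 2 passed as lower in ROC22. In GT86-887, c129806.graph_c0 and c133277.graph_c0 were those counted as higher at the late stage, and both are named after their values were seen. The early libraries of c129806.graph_c0 held 0.0984, 0.370 and 0.276 CPM and the late libraries 2.87, 5.48 and 2.05, a log2 difference of 3.65 ± 0.73. The groups do not overlap, and the middle libraries lay higher still, at 8.31, 3.38 and 9.54 CPM, although the lowest of them was below the highest late one. For c133277.graph_c0 the log2 difference was 1.73 ± 0.55, from 1.97, 5.04 and 2.30 CPM to 11.9, 16.0 and 5.74. Without some single libraries only 1 of the 32 was counted as higher in GT86-887, namely early library 3 or middle library 3 of ROC22, or early library 1 or 3, middle library 2, or late library 1 or 2 of GT86-887.

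The genotypes are compared in stem with the libraries that also chose the unigenes, so the values are a description and nothing is read from the counts beside those of all unigenes. Over the 3 stages, 13 of the 32 were higher in ROC22 and 0 were lower (edgeR adjusted p below 0.05), against 26.6% higher and 28.4% lower of the 36199 tested unigenes. At an unadjusted p below 0.05 the counts were 14 and 0, as they were with DESeq2. The fitted difference was positive for 30 of the 32, against 49.0% of all tested unigenes. Its median was 0.72 on the log2 scale, against -0.02 over all tested unigenes. The 13 were higher by 0.74 to 4.65. The count was 13 without the middle library 1 of GT86-887 that stood apart, and 12 to 16 over the 18 recounts that left out 1 stem library. The rule asks for 5 CPM at the middle stage in both genotypes, which limits how far a unigene can differ there. ROC22 and GT86-887 libraries of all stages overlapped for each of the 32. The rule favours such overlap, since each unigene had to vary at least 2-fold between stages in each genotype. The share of all tested unigenes with such overlap was not counted.

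At the middle stage itself, the ROC22 mean was higher for 26 of the 32, with a median ratio of 1.34 and a range from 0.487 to 12.96. Among the 14899 abundant unigenes, 42.7% had a higher ROC22 mean and the median ratio was 0.949. As examples named after their values were seen, c130226.graph_c0 was higher in ROC22 by 1.20 ± 0.25 on the log2 scale as the mean over stages and c141975.graph_c0 by 1.86 ± 0.22 (SE). The middle stem libraries of c141975.graph_c0 held 18.3, 42.2 and 42.5 CPM in ROC22 and 8.97, 8.40 and 13.4 CPM in GT86-887, with no overlap. The highest ratio belonged to c111754.graph_c1, also named after its values were seen, with 25.8, 49.5 and 120 CPM in ROC22 and 12.9, 0 and 2.22 CPM in GT86-887. Its middle level in GT86-887 rested on library 1, the library that stood apart, and so did its peak ratio of 11.8 in that genotype. The middle library 1 of GT86-887 was the highest of its group for 6 of the 32.

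**Figure D4:**
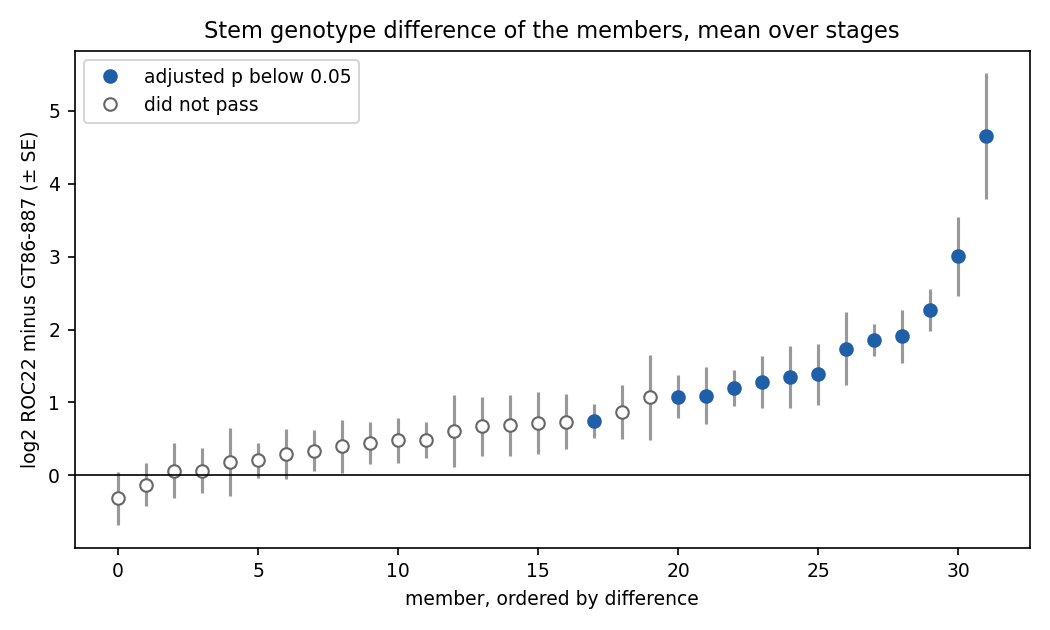
Fitted log2 difference ROC22 minus GT86-887 in stem as the mean over stages, ± SE, for the 32 unigenes in order of size, with filled points for an edgeR adjusted p below 0.05. All but 2 points lie above 0, and each filled point is above 0.

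In leaf the 32 unigenes fell into different levels. A group of 13 stayed under 5 CPM in every leaf group, against 8.26% of the 14899 abundant unigenes, and 4 of these stayed under 1 CPM. Another 16 were at 5 CPM or more in every leaf group, against 75.5%, and 3 crossed that level. The 13 had a median of 29.6 CPM in ROC22 middle stem and 1.21 CPM in ROC22 middle leaf, and of 12.6 and 1.68 CPM in GT86-887. The 16 had 43.0 CPM in ROC22 middle stem and 36.7 CPM in middle leaf, and 23.3 and 59.9 CPM in GT86-887. The stem peak ratio, which the rule bounds from below, had medians of 2.45 for the 13 and 2.31 for the 16 in ROC22, and of 2.97 and 2.43 in GT86-887. The stem middle mean was above the leaf middle mean for 26 of the 32 in ROC22 and 20 in GT86-887, against 67.4% and 71.3% of the abundant unigenes. At the early stage the stem mean was the higher for 17 in ROC22 and 14 in GT86-887, against 64.5% and 63.7%, and at the late stage for 16 and 17, against 65.9% and 70.2%. The rule chose the 32 for their stem levels, so these counts are a description.

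The rule did not use the leaf libraries. The summed CPM of the 32 in leaf was 951 ± 60.9, 1045 ± 64.4 and 917 ± 50.7 at the early, middle and late stages in ROC22 and 751 ± 37.3, 1007 ± 73.1 and 792 ± 71.4 in GT86-887 (SD, n = 3). In GT86-887 every middle sum, the lowest at 940 CPM, lay above every early and late sum, the highest at 856 CPM, while in ROC22 every middle sum was above every late one and overlapped the early ones. The SD of a group's sum was 37.3 to 73.1 CPM in leaf and 110 to 905 CPM in stem. The rule itself, applied to the leaf libraries, was met by 2 of the 32 in ROC22 and 3 in GT86-887, against 0.302% and 0.685% of the abundant unigenes. In either genotype it was met by 4, against 0.899%, or by 2 without middle library 2 of GT86-887. It was met in both genotypes by c133277.graph_c0 alone, against 0.0873%. In leaf this unigene stood at 15.2, 16.2 and 14.52 CPM early, 44.2, 24.8 and 31.3 middle and 23.7, 6.88 and 3.37 late in ROC22, and at 8.40, 5.48 and 8.27 early, 40.4, 28.7 and 35.7 middle and 11.2, 9.04 and 13 late in GT86-887. The middle libraries were above all others in both genotypes.

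From the early to the middle stage, more of the 32 rose than fell in leaf. Of the 31 that passed the filter on low counts there, 12 were higher and 1 lower at the middle stage in GT86-887 (edgeR adjusted p below 0.05), against 9.82% higher and 8.42% lower of the 37678 tested. The median log2 difference was 0.90, against -0.03 over all tested unigenes, and the 12 rose by 0.66 to 3.59. In ROC22, 7 were higher and 2 lower, against 8.25% and 9.65%, with a median of 0.53. All 7 that rose in ROC22 also rose in GT86-887. Of all tested unigenes, 3109 rose in ROC22, and 1617 of these rose in GT86-887 too. So 7 of the 31 rose in both genotypes, against 4.29% of all tested unigenes. The 12 in GT86-887 were 13 without the leaf middle library 1 that stood apart, and 9 to 13 over the 18 recounts. The 7 in ROC22 rested on single libraries: 2 rose without early library 3, middle library 1 or middle library 2 of ROC22, 3 without early library 2 and 4 without middle library 3. The 2 that fell were 1 without early library 1 or 2 of ROC22 and 0 without middle library 1 or 2.

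Among unigenes above the median level whose groups did not overlap, the largest rises in GT86-887 leaf were those of c119071.graph_c0 and c129364.graph_c2. The leaf libraries of c119071.graph_c0 held 5.56, 4.495 and 5.49 CPM early and 47.1, 27.5 and 54.7 CPM at the middle stage, a rise of 3.16 ± 0.30 on the log2 scale (SE, edgeR adjusted p = 7.86e-06). For c129364.graph_c2 the values were 11.52, 7.85 and 9.92 CPM early and 83.6, 51.3 and 67.1 CPM at the middle stage, a rise of 2.88 ± 0.30 (edgeR adjusted p = 2.36e-05). The groups lay far apart for both unigenes, and both calls held under all 22 alternatives tried. In ROC22 leaf, c111754.graph_c1 rose by 1.72 ± 0.33 (edgeR adjusted p = 0.00199), from 26.0, 13.6 and 16.7 CPM to 58.1, 55.1 and 85.7, which also held under all 22 alternatives. The rise of c138601.graph_c0 in ROC22 leaf was 1.03 ± 0.24 (edgeR adjusted p = 0.00694), and it missed the threshold without middle library 1 of ROC22 (adjusted p = 0.0503).

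A few of the 32 went the other way in leaf. The level of c141975.graph_c0 fell from 232, 286 and 222 CPM at the early stage to 91.6, 128 and 144 at the middle stage in ROC22, by 1.12 ± 0.31 on the log2 scale (edgeR adjusted p = 0.0183). In GT86-887 leaf it fell from 191, 192 and 136 CPM to 36.8, 69.8 and 86.5, by 1.31 ± 0.31 (edgeR adjusted p = 0.00858), and it was the single unigene of the 32 to fall in both genotypes. The ROC22 leaf level of c130226.graph_c0 fell from 140, 90.4 and 89.2 CPM to 24.9, 29.6 and 51.0, by 1.69 ± 0.48 (edgeR adjusted p = 0.0210). The early and middle libraries did not overlap in these cases. Both ROC22 calls were lost when single ROC22 libraries were left out, with adjusted p-values up to 0.0938 for c141975.graph_c0 and up to 0.0957 for c130226.graph_c0, while the GT86-887 call of c141975.graph_c0 held under all 22 alternatives.

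**Figure D5:**
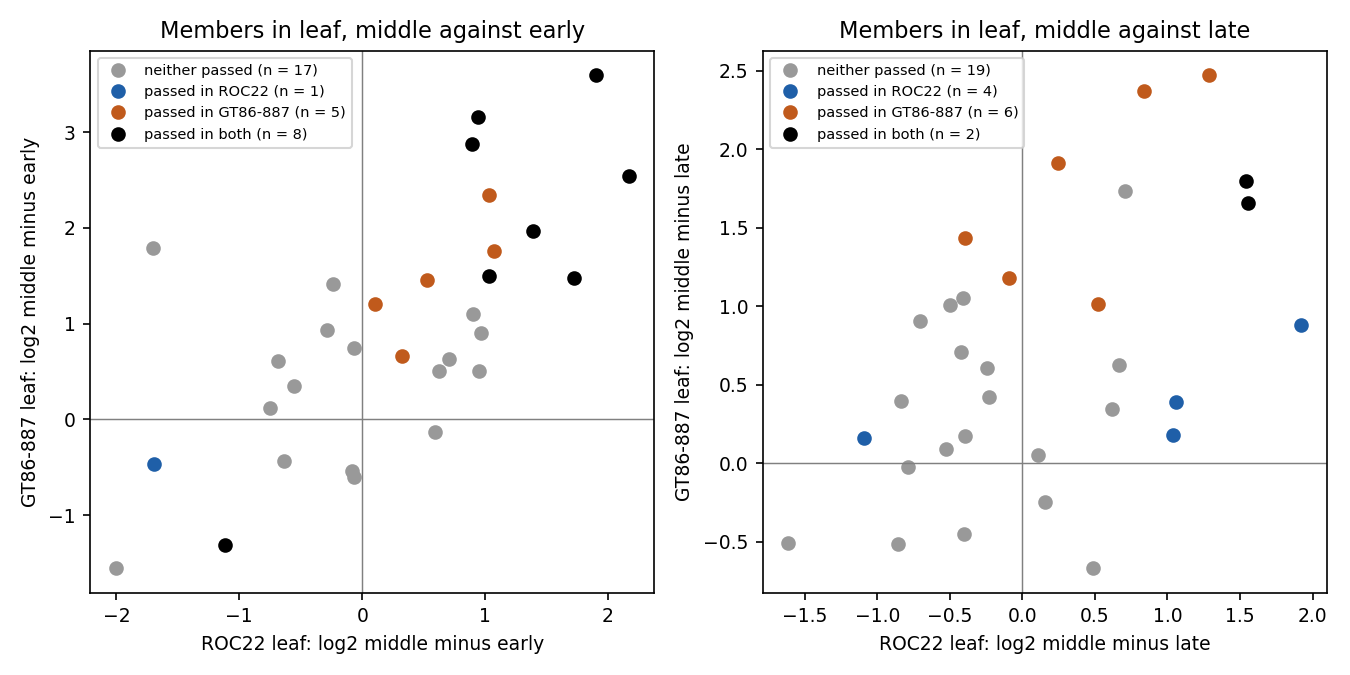
Fitted log2 differences of the 31 tested unigenes in leaf, middle minus early on the left and middle minus late on the right, with ROC22 on the x axis and GT86-887 on the y axis and colours for the genotype in which the edgeR adjusted p was below 0.05. On the left most coloured points lie above 0 in GT86-887, and on the right the points scatter around 0 in ROC22 and mostly above 0 in GT86-887.

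Against the late stage, the middle leaf level was higher in GT86-887 for 8 of the 31 and lower for 0 (edgeR adjusted p below 0.05), against 5.90% and 4.94% of all tested unigenes. At an unadjusted p below 0.05 the counts were 11 and 0, DESeq2 called 9 and 0, and the median log2 difference was 0.61. The count of 8 fell to 2 without late library 2 of GT86-887 and to 3 without late library 3, and it was 6 without the middle library 1 that stood apart. In ROC22, 5 were higher and 1 lower, against 5.40% and 6.61%, with a median of -0.09. The 5 became 3 without early library 3, late library 1, late library 3 or middle library 2 of ROC22 or early library 2 or late library 2 of GT86-887. They became 2 without late library 2 or middle library 1 of ROC22 and 1 without its middle library 3. The 1 that was lower became 2 without early library 1 of ROC22 or middle library 1 of GT86-887, and 0 without late library 2, middle library 1 or middle library 3 of ROC22.

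The level of c130226.graph_c0 in GT86-887 leaf was 51.5, 42.8 and 64.7 CPM at the middle stage and 4.82, 6.25 and 17.8 at the late stage, higher at the middle stage by 2.47 ± 0.50 on the log2 scale (SE, edgeR adjusted p = 0.00589). This call held under all 22 alternatives. The leaf peak of c133277.graph_c0 also passed against late, by 1.56 ± 0.46 in ROC22 (edgeR adjusted p = 0.0347) and by 1.66 ± 0.46 in GT86-887 (edgeR adjusted p = 0.0305). Each of these calls was lost in 4 of the 22 alternatives, all of them with 1 leaf library left out. In ROC22 leaf, c111754.graph_c1 was higher at the middle than at the late stage by 1.06 ± 0.32 (edgeR adjusted p = 0.0395), which passed under 13 of the 22 alternatives. The ROC22 level of c119071.graph_c0 was lower at the middle than at the late stage, with a log2 difference of -1.09 ± 0.27 (edgeR adjusted p = 0.0142), which was lost without late library 2, middle library 1 or middle library 3 of ROC22. Its leaf libraries held 20.5, 25.01 and 20.2 CPM at the middle stage and 44.4, 55.4 and 38.3 CPM at the late stage, although its stem level peaked at the middle stage.

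The middle leaf level passed against both early and late for 1 of the 31 in ROC22, c111754.graph_c1, and for 4 in GT86-887, against 1.26% and 1.51% of all tested unigenes. The comparisons of the middle stage with early and with late share the middle libraries. Whether the leaf peak differed between genotypes was tested as the middle stage minus the mean of early and late, ROC22 minus GT86-887. None of the 31 passed in either direction (edgeR adjusted p below 0.05), against 0.0345% and 0.0902% of all tested unigenes, although 1 was higher and 10 were lower at an unadjusted p below 0.05 and DESeq2 called 0 and 3. The median of this difference was -0.78, against -0.01 over all tested unigenes. It was positive for 8 of the 31, against 48.8% of all tested unigenes. Without GT86-887 leaf middle library 1 or 2 there were 2 that passed as lower. So the larger number of unigenes that passed in GT86-887 leaf is not shown to be a difference between the genotypes.

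Over the stages, 8 of the 31 were higher and 4 lower in ROC22 than in GT86-887 leaf (edgeR adjusted p below 0.05), against 25.8% and 25.7%. In stem the counts were 13 and 0, from the libraries that also chose the unigenes, so nothing is read from them beside the leaf counts. The difference between tissues was not tested. Counts over both tissues share this limit. Both in stem and in leaf, 5 unigenes were higher in ROC22, against 14.6% of the unigenes tested in both tissues. The unigene c138601.graph_c0, named after its values were seen, was the 1 that was higher in ROC22 stem and lower in ROC22 leaf, against 1.97%. At the middle stage its stem libraries held 238, 293 and 533 CPM in ROC22 and 125, 120 and 405 CPM in GT86-887, and its leaf libraries 42.6, 25.5 and 24.7 CPM in ROC22 and 82.3, 74.8 and 49.6 CPM in GT86-887. The stem libraries overlapped at that stage and the leaf libraries did not. The 4 that were lower in leaf were 2 without early library 2 of ROC22.

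The 32 unigenes shared no assembly component number with each other, the number that precedes the suffix of each identifier and groups related assembled sequences. Their length, as implied by the ratio of deposited counts to FPKM if the summed count was the divisor, had a median of 1360 bases with a range from 93.2 to 10205, near the median of 1401 bases of the 14899 abundant unigenes. The ratio was taken in the library with the highest FPKM of each unigene. For the shortest, c96724.graph_c0, the ratio differed between libraries, so 93.2 is not a measured length. None of the 871 miRNA and target pairs listed for the degradome, over 752 target unigenes, had 1 of the 32 as its target. Among the abundant unigenes 528 were targets, which is 3.54%. A list of pairs found does not show that the other unigenes are not cleaved. The titles of the degradome libraries name only early and late stages, some of them against a label of middle stage. Their stages are therefore not settled here, and nothing is read from the absence of the 32.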

How the data were processed

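For 36 mRNA libraries the authors deposited whole-read counts of each unigene together with FPKM values, as named in the file headers. The deposited degradome table gives tag numbers for pairs of a miRNA and a unigene in 8 libraries, and small RNA libraries were not used here. Per the labels' protocols, RNA was extracted with Trizol. The sources used here do not name the assembler, aligner or counting program.

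CPM is the count divided by the column sum and multiplied by 1e6. Stem and leaf counts were tested apart, in 18 libraries each, with edgeR 4.0.16 in R 4.3.3 (filterByExpr, TMM scaling, 1 coefficient per group, quasi-likelihood test, Benjamini-Hochberg adjustment over all tested unigenes, threshold 0.05). The SE given with an edgeR log2 difference is its size divided by the square root of the test's F value, not a separate estimate. DESeq2 1.42.0, no TMM factors, no filter, a replicate block and leaving out each library were alternatives. In simulated counts for stem late minus early in ROC22, 34 of 100 changes of 2-fold and 87 of 100 of 4-fold were recovered over 34827 unigenes. For leaf middle minus early in ROC22 these were 35 and 94 of 100 over 35861 unigenes. The simulated counts took their spread from its trend over all unigenes. In stem late minus early in ROC22 the median SE was 0.63 for the 32, against 0.34 for all tested unigenes. The rates may therefore overstate recovery for the 32.

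Up to 2 unigenes in each direction are named per comparison: for the stem peak those with non-overlapping middle libraries in both genotypes, and for tests those with the largest change among unigenes that passed, lay above the median level and had non-overlapping groups. Unigenes named outside this rule, for a small count or a value that stood out, were chosen after their values were seen. The 32 unigenes and the comparisons were chosen with earlier results of these data known. FPKM values deposited by the authors were used as a description of level and for implied length. Correlations between libraries used the 27377 stem and 27749 leaf unigenes with a mean count of 20 or more.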

Additional observations from a re-analysis of the deposited data

Results flagged for a closer look

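Some of the 32 unigenes moved in opposite directions in stem and leaf, with every middle stem library above every early one and every middle leaf library below every early one of the same genotype. In each case the difference between the tissues was not tested, and the stem direction was part of the choice of the unigenes. The share of all unigenes for which this holds was not counted, so nothing is read from the number of cases. In ROC22 this held for c130226.graph_c0, with a leaf log2 difference, middle minus early, of -1.69, and for c140539.graph_c0, with -1.70 at leaf levels of at most 1.19 CPM. In GT86-887 it held for c128482.graph_c2, with a leaf difference of -0.60, and for c141975.graph_c0, with -1.31. The leaf fall passed the edgeR test for c130226.graph_c0 and c141975.graph_c0, and missed it for c140539.graph_c0 (adjusted p = 0.140) and c128482.graph_c2 (adjusted p = 0.149).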

How the results depend on the processing

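The number of unigenes by the rule was 59 with a level threshold of 2 CPM and 170 with a fold of 1.5. With a fold of 3 it was 3. It was 55 with medians, 20 of them among the 32. Without both middle stem libraries numbered 1, an alternative chosen after seeing the data, it was 82, 26 of them among the 32. With TMM-scaled CPM 23 of the 32 met the rule, and with a level threshold of 10 CPM 22 did, with no others. Column sums without the most abundant stem unigene gave 30, with 28 of the 32. Leaving out 1 library gave 15 to 52. Of the 32, the rule in leaf was met by 4 in either genotype, by 2 with a fold of 3, by 7 with no level threshold, and by 2 to 4 without 1 library. Without a filter on low counts, stem late minus early gave 2 higher and 4 lower in ROC22 and 4 higher and 1 lower in GT86-887. The same setting gave 12 higher and 4 lower for leaf middle minus early in ROC22, 2 lower in GT86-887, 8 higher and 3 lower for middle minus late in ROC22, and 7 lower for the genotype by stage difference. DESeq2 gave 1 lower for stem late minus early in GT86-887 and 3 lower for genotype by stage, which had 1 lower without TMM factors.

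Leaving out 1 library gave for stem late minus early 0 to 1 higher and 0 to 2 lower in ROC22, and 1 to 3 higher and 0 to 1 lower in GT86-887. For leaf middle minus early in ROC22 it gave 2 to 8 higher and 0 to 2 lower, and for middle minus late 1 to 6 higher and 0 to 2 lower. Leaf middle minus late in GT86-887 gave 2 to 8 higher, the leaf genotype difference 2 to 5 lower, and genotype by stage 0 to 2 lower. The stem genotype counts and the count of unigenes higher in GT86-887 leaf at the middle than at the early stage stayed within 1.5 times under every alternative. The cause of these moves was not tested. No degradome pair of the 32 was found, also among the 517 pairs with tags in 2 or more libraries.

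Libraries with the same number were not paired. Correlations of their deviations ran from -0.40 to 0.253 in stem and from -0.17 to 0.357 in leaf. With a replicate block, stem late minus early in GT86-887 gave 1 higher, since c133277.graph_c0 no longer passed (edgeR adjusted p = 0.0594), and genotype by stage 1 lower. Without TMM factors the median of all tested unigenes moved to 0.11 for stem late minus early in GT86-887, and no named unigene changed direction.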
